A study of Aedes albopictus with 6 samples.

Results

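Small RNA tags that lay end to end on the nuclear genome of the Asian tiger mosquito, Aedes albopictus, were examined in females and males. A tag here is 1 listed small RNA with a position, and 2 tags formed a pair when the start of the right one lay 1 to 3 bases after the end of the left one on the same sequence. Of 22304 listed nuclear tags, and 22773 in all, 962 belonged to 782 such pairs. Left and right refer to the coordinates, because the table gives no strand. A pair on one strand, in the order of transcription, and a pair on opposite strands therefore cannot be told apart. Taking start and end as the first and last base of a tag, as its listed lengths of 24 to 33 nt then imply, a gap of 1 base means that the tags touch. The labels and the file header do not name the convention of the coordinates.

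The libraries came from whole bodies of virgin adult females and of adult males, all 2 days old, with 3 libraries per sex in the labels and 1 count column per sex in the table. No strain, treatment or tissue beyond the whole body is given, so gonads and all other organs are mixed. Levels below are hence 1 value per sex, without replicates, and no p-value is given. A lower level per cell and fewer cells that make a small RNA cannot be told apart in whole bodies. The column totals recovered from counts and TPM were 2677063 for females and 2060047 for males. TPM is a count divided by its column's total and put on the usual per-1e6 scale, with no length term. The list holds only tags at least 2.0-fold apart between the sexes, so every member is higher in one sex by construction. Brackets give 95% intervals, which for counts and their ratios cover counting error only. For numbers and shares of pairs or tags they take each as independent, although many share a tag, and are likely too narrow. Overlap of intervals is stated as a description and is not a test of a difference.

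PIWI-interacting RNAs (piRNAs) are small RNAs that guide PIWI proteins to transposon transcripts and, in mosquitoes, also to viral ones. In one route of their production, worked out mainly in the fruit fly Drosophila melanogaster, the endonuclease Zucchini cuts a long precursor stepwise, so that the cut which sets the 3′ end of one piRNA also sets the 5′ end of the next. Such phased piRNAs lie head to tail along the precursor, and trimming of their 3′ ends can open small gaps between neighbours. The other main route, the ping-pong cycle, leaves partners on opposite strands that overlap at their 5′ ends.

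Tags that touched were the most frequent kind of close neighbour. There were 366 pairs at a gap of 1 base (330 to 406), against 199 at 2 bases and 217 at 3 bases. At gaps of 4 to 20 bases the number ranged from 117 at 14 bases to 236 at 5 bases, with a mean of 159.1 per base. The pairs at 1 base were thus 2.30 times that mean (2.06 to 2.57). Just outside the limit of the rule, 205 pairs had a gap of 4 bases, close to the 217 at 3 bases just inside it.

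The excess was largest at the gap of 1 base. Several tags often ended or started on the same base, and each combination of them is a pair, so each junction of one end position with one start position was also counted once. This left 487 junctions at gaps of 1 to 3 bases, of which 234 were at 1 base, 116 at 2 and 137 at 3. The 234 junctions at 1 base were 2.10 times (1.83 to 2.41) the mean of 111.2 per base at 4 to 20. The 116 at 2 bases were 1.04 times that mean (0.86 to 1.26) and the 137 at 3 bases 1.23 times (1.03 to 1.47). Junctions at 4 to 8 bases, at 136.4 per base, were as frequent as those at 3 bases. Tags that shared 1 base, the last of the left and the first of the right, numbered 125 junctions. Further out, gaps of 21 to 60 bases had between 72 and 133 junctions each.

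**Figure D1:**
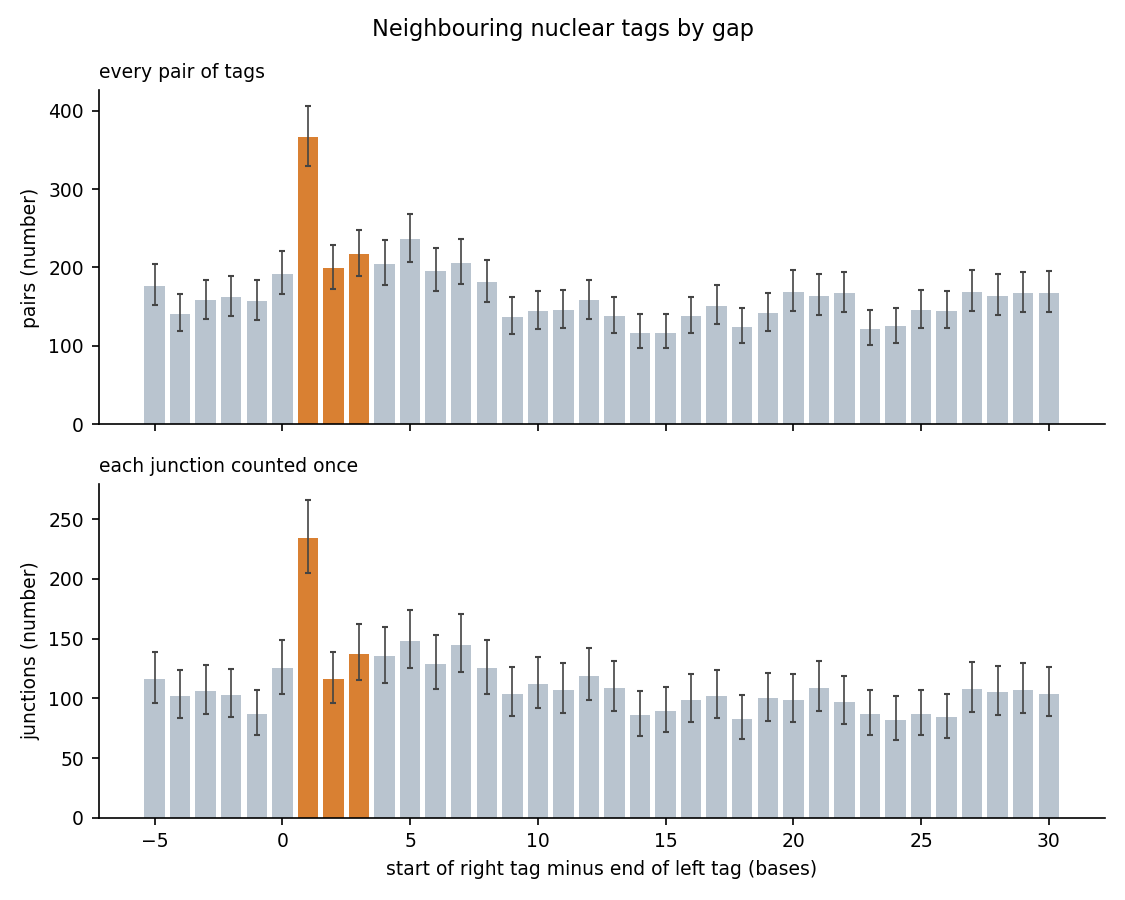
Number of nuclear tag pairs (top) and of junctions counted once (bottom) by the start of the right tag minus the end of the left tag, in bases, where values of 0 and below are overlaps; orange bars are gaps of 1 to 3 and whiskers are exact 95% Poisson intervals. The bar at 1 base, with 366 pairs and 234 junctions, stands above all others, while those at 2 and 3 bases are no higher than the highest of the bars at 4 to 8.

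Part of the junctions at 2 and 3 bases shared a side with a touching one. Of 253 such junctions, 59 had a right start that also touched another listed tag, and 48 had a left end that did. In all, 92 shared one side with a junction at 1 base, and 161 shared neither. No such count is given for junctions at 4 to 20 bases, so nothing is read from these numbers. Tags with a common end made up the left side of 14.5% of junctions at 1 base (10.3 to 19.7) and of 14.0% at 4 to 20 bases (12.5 to 15.7). Tags with a common start made up the right side of 18.4% at 1 base (13.6 to 23.9) and of 14.4% at 4 to 20 bases (12.9 to 16.1). Both pairs of intervals overlap. Single tags on both sides formed 71.8% of junctions at 1 base and 74.7% of those at 4 to 20 bases.

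The surplus at 1 base was present among pairs of either sex bias. Where both partners were higher in females, 94 junctions touched, 2.24 times (1.78 to 2.77) the mean of that class at 4 to 20 bases. Where both were higher in males, 79 touched, 2.34 times (1.82 to 2.96) the mean of their class. Where the partners were higher in different sexes, 61 touched, 1.73 times (1.30 to 2.25) the mean. The 3 intervals overlap, and a difference between the classes was not tested. Restricting the list to tags counted in females gave 2.25 times (1.91 to 2.64), and to those counted in males 2.28 times (1.87 to 2.77). Tags of the mitochondrial sequence, which are outside the rule, had 20 touching junctions, 1.71 times (1.02 to 2.71) their mean at 4 to 20 bases. This interval reaches close to 1 and overlaps the nuclear one, and a difference from the nuclear tags was not tested.

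**Figure D2:**
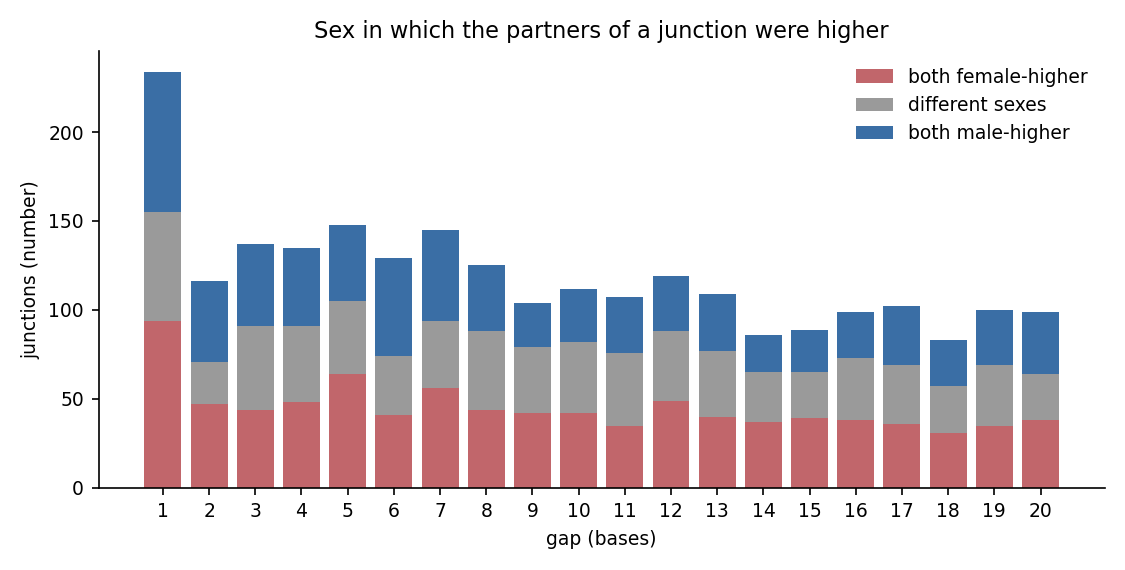
Number of junctions at each gap from 1 to 20 bases, split by the sex in which their partners were higher: both in females (red), both in males (blue) or one in each (grey). At 1 base there were 94, 79 and 61 junctions of these kinds, more than at any other gap shown for each of them.

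The 962 members were split almost evenly between the sexes. Higher in males were 480 of them, 49.9% (46.7 to 53.1), while 30.3% of all listed nuclear tags were. Higher in females were 482, against 69.7% of nuclear tags. The share in males was lower, 45.1%, without the region with most pairs, which is described below. Tags that had neighbours only at 4 to 20 bases, 2196 in number, were higher in males in 44.0% of cases (41.9 to 46.1). The lean away from females was thus shared in large part by closely packed tags at other gaps. Counted in females alone were 315 members, or 32.7%, against 56.8% of nuclear tags. Counted in males alone were 200, or 20.8%, against 16.1%. The remaining 447 had counts in both sexes.

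Members were also counted more deeply than most tags. Their median sum of both counts was 13, against 11 for tags with neighbours only at 4 to 20 bases and 8 for all nuclear tags. At least 20 counts were reached by 345 members (35.9%) and by 19.9% of nuclear tags. Together the members held 17497 female and 22118 male counts, 6.58% and 10.7% of the nuclear counts listed. Summed, they were 1.64-fold (1.61 to 1.68) more abundant in males, against 1.01 for all nuclear tags. With RLE factors, one of 4 other scalings tried, it turned to 0.73, while the others gave 1.21 to 1.74. The direction of the sum thus rests on the scaling, in that RLE alone turned it. All 4 of these scalings, RLE among them, were computed on the listed tags, all at least 2.0-fold apart, so no tag of near equal level entered them.

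Long tags were more frequent among the members. Tags of 31 to 33 nt made up 4.89% of them (3.61 to 6.44), against 2.43% (2.24 to 2.65) of all nuclear tags. Within the female-higher members the share was 3.73% (2.23 to 5.84), against 1.85% (1.64 to 2.07) of female-higher nuclear tags. Within the male-higher members it was 6.04% (4.08 to 8.56), against 3.79% (3.35 to 4.27) of male-higher nuclear tags, and these intervals overlap. Among tags with neighbours only at 4 to 20 bases it was 3.87% (3.10 to 4.76), an interval that overlaps that of the members. Tags of 27 or 28 nt made up 42.6% of members and 48.2% of nuclear tags. The left tag of a touching junction was most often 27 nt long, in 61 of 234 cases, followed by 28 nt in 47. These shares, 26.1% and 20.1%, were close to the 26.5% and 21.7% of all nuclear tags.

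Close neighbours were mostly higher in the same sex, and those at 1 to 3 bases little more so than others. In 616 of 782 pairs, 78.8% (75.7 to 81.6), both partners were higher in the same sex, 244 in females and 372 in males. At 4 to 20 bases the share was 72.2% (70.5 to 73.9), and at 21 to 60 bases 75.4% (74.3 to 76.5). Counted once per junction, the shares were 72.9% (68.7 to 76.8) at 1 to 3 bases and 68.2% (66.1 to 70.3) at 4 to 20, and these intervals overlap. By single gap they were 73.9% (67.8 to 79.4) at 1 base, 79.3% (70.8 to 86.3) at 2 and 65.7% (57.1 to 73.6) at 3. Touching junctions thus did not have the highest share. With overlapping tags merged to loci the order turned, at 65.4% (58.2 to 72.2) and 68.3% (64.6 to 71.9). Well-counted tags differed most. Where both partners had at least 20 counts, 88.2% (80.6 to 93.6) of 110 pairs were of one sex, against 75.4% (70.2 to 80.1) at 4 to 20 bases. Once per junction these shares were 85.3% (75.3 to 92.4) of 75 junctions and 71.3% (65.2 to 76.9), whose intervals overlap.

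Pairs split between the sexes included well-counted ones. Of the 166 pairs whose partners were higher in different sexes, 123 had a counting interval that excluded equal levels in both partners. At 4 to 20 bases 524 of 752 such pairs did. In 44 of the 166, one partner was counted in females alone and the other in males alone, against 206 of the 752. The tags were already chosen for their difference, which by itself favours intervals that exclude equal levels, so nothing is read from these numbers.

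Partners could differ widely in level. The median fold between them in total count was 2.32, against 2.17 at 4 to 20 bases, and the upper quartile was 4.64. In 79 of 782 pairs one partner had at least 10 times the counts of the other. At 4 to 20 bases it was 235 of 2705. Neither side led, as the left tag had more counts in 371 pairs and the right in 375. In 182 pairs all 4 counts were above 0, and there the male over female log2 ratios of left and right had a Pearson r of 0.53 and a Spearman rho of 0.48. Over 582 such pairs at 4 to 20 bases r was 0.45 and rho 0.43. As the list has no ratio under 2.0-fold, the points form separate clouds by sex. Within the 106 pairs higher in males in both partners r was 0.12, and within the 37 higher in females 0.29. At 4 to 20 bases these were 0.20 over 315 pairs and -0.10 over 112. The r over all 182 pairs thus came mostly from the shared direction. The pairs share libraries and many share tags.

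**Figure D3:**
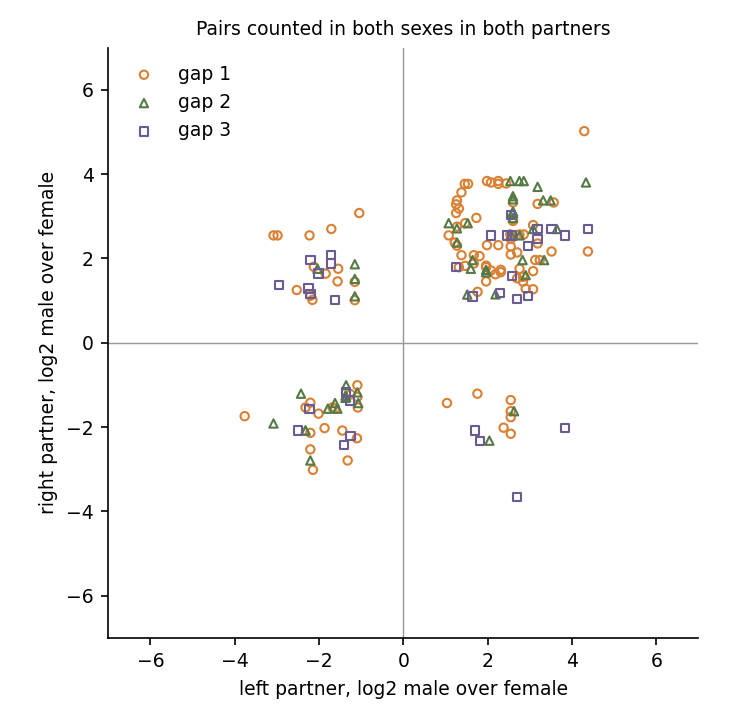
Log2 male over female ratio of the left (horizontal) and right partner (vertical) for the 182 pairs at gaps of 1 to 3 bases with counts in both sexes in both partners, 1 point per pair, with the gap shown by the marker. The 106 pairs higher in males in both partners (upper right) and the 37 higher in females in both (lower left) outnumber the 39 in the other quadrants, and no point lies between -1 and 1 because the list holds none.

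Among pairs higher in males in both partners, that with the most counts in its lesser partner lay at NW_021839130.1 50840999 to 50841052. Its left tag of 27 nt, ending at 50841025, had 44 female and 168 male counts, a ratio of 4.96 (3.54 to 7.08). Its right tag of 27 nt, starting on the next base, had 302 and 742, a ratio of 3.19 (2.79 to 3.66). Both tags were thus male-higher, with the right one 4.42-fold the left in males and 6.86-fold in females. Shorter and longer forms touched there too. The 26-nt tag ending at 50841024, with 16 female and 48 male counts, touched a 28-nt tag that started at 50841025 and had 88 and 235. The junction itself was therefore listed at neighbouring bases.

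Other male-higher pairs ranged from even to uneven partners. At NW_021839020.1 32316001 to 32316052, a 25-nt tag with 28 female and 73 male counts touched a 27-nt tag with 36 and 64. Their ratios of 3.39 (2.16 to 5.44) and 2.31 (1.51 to 3.58) overlap in counting error, and their levels were within 1.29-fold in either sex. At NW_021838602.1 320694 to 320749, tags of 28 nt each had 71 and 11 female counts and 648 and 85 male counts. The left was 11.9-fold (9.27 to 15.4) higher in males, and the right had a ratio between 5.34 and 20.9 by its interval. A further 27-nt tag, at 320667 to 320693, touched the left one from the other side with 15 female and 30 male counts. At NW_021839130.1 50830873 to 50830927, a 26-nt tag was 5.42-fold (3.41 to 8.96) and the touching 29-nt tag 13.7-fold (6.34 to 35.4) higher in males.

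**Figure D4:**
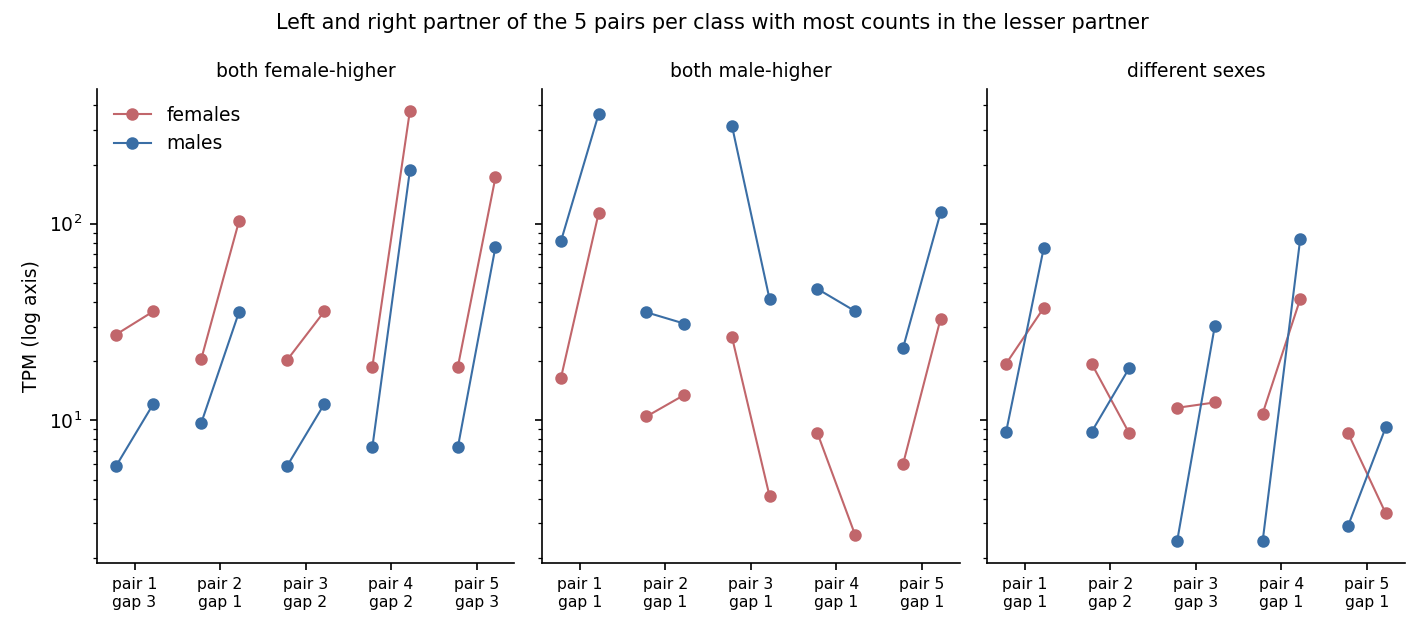
TPM (log axis) in females (red) and males (blue) of the left and right partner, joined by a line, for the 5 pairs with most counts in the lesser partner in each of 3 classes, numbered in that order. In the first 2 classes 1 colour is on top on both sides of a pair, and in the third the lines cross, as in its first pair, where males rise from 8.74 to 75.2 and pass females, which rise from 19.4 to 37.4.

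By counts of the lesser partner, pairs higher in females were led by a short stretch at NW_021839130.1 50212872 to 50212925. A 27-nt tag with 73 female and 12 male counts lay 3 bases before a 25-nt tag with 96 and 25. The left was 4.68-fold (2.52 to 9.47) higher in females and the right 2.96-fold (1.89 to 4.79). A 26-nt tag at 50212874 to 50212899, with 54 and 12 counts, lay 2 bases before the same right tag, so these pairs share a partner. A touching pair lay at NW_021837046.1 33915146 to 33915199, where a 26-nt tag with 55 female and 20 male counts was followed by a 28-nt tag with 275 and 73. The first was 2.12-fold (1.25 to 3.73) higher in females and the second 2.90-fold (2.23 to 3.81).

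The second most counted member stood in a female-higher stack. It was the 26-nt tag at NW_021839130.1 50173541 to 50173566, with 1008 female and 386 male counts, and a 25-nt tag starting 1 base later had 461 and 157. The tag to their left, at 50173514 to 50173539, had 50 and 15. A 29-nt tag ending at 50173540 touched the 26-nt tag and had 36 and 13. Every one of these tags was higher in females, while the right side held far more counts than the left.

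The most counted member had a weak partner of the other sex. This 25-nt tag at NW_021837156.1 57217612 to 57217636 had 2064 female and 4209 male counts. The 26-nt tag that touched it on the left, at 57217586 to 57217611, had 13 female counts and was listed at 0 in males. The totals of these neighbours differed 482.5-fold, the widest of all pairs. A 24-nt tag with the same start as the most counted member had 325 and 734.

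Among pairs of different direction, that with the most counts in its lesser partner was at NW_021838153.1 167913357 to 167913414. A 25-nt tag with 52 female and 18 male counts, 2.22-fold (1.28 to 4.04) higher in females, touched a 33-nt tag with 100 and 155, 2.01-fold (1.56 to 2.62) higher in males. A 32-nt form of the right tag, 1 base further on, had 23 and 38 counts and was 2.15-fold (1.25 to 3.77) higher in males. With RLE factors both right tags turned to slightly female-higher, with log2 ratios of -0.16 and -0.07, so that these pairs no longer differed in direction. The same stretch held the pair with the largest difference in log2 ratio among those with all 4 counts above 0. There a 27-nt tag at 167913337 to 167913363 had 2 female and 10 male counts, and a 27-nt tag starting 3 bases on had 33 and 2. Their log2 male over female ratios were 2.70 and -3.67, though each rests on a count of 2 in one sex. At NW_021839130.1 50828109 to 50828161, a 28-nt tag with 29 female and 5 male counts touched a 25-nt tag with 111 and 173, whose log2 ratio of 1.02 turned to -0.16 with RLE factors. At NW_021837489.1 2320582 to 2320636, a 25-nt tag with 31 and 5 lay 3 bases before a 28-nt tag with 33 and 62, so the female counts were nearly equal while the male counts differed 12.4-fold. At NW_021838599.1 5397269 to 5397321, a 27-nt tag with 23 and 6 touched a 26-nt tag with 9 and 19.

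The next widest differences among pairs with all 4 counts above 0 lay elsewhere. The 44 pairs of tags counted in opposite sexes alone have no finite ratio and are outside this ranking. At NW_021838576.1 42838661 to 42838716, the left tag had 2 female and 22 male counts and the right tag, 3 bases on, had 21 and 4. At NW_021838687.1 30089857 to 30089909, the left tag had 73 and 12 and the touching right tag had 2 and 9. In the second of these the male counts differed 1.33-fold and the female counts 36.5-fold.

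Most groups of linked pairs held no series of more than 2 tags. The 782 pairs joined the members into 322 groups, of which 194 were a single pair. In 33 groups at least 3 tags followed each other, and in 8 of those series every gap was 1 base. With 1 series taken per group, all its tags were higher in females in 7 and in males in 8, while 18 mixed both. In some groups other tags could form a different series, so this split depends on the tags taken. No such count is given for other gaps. The longest series held 5 tags over 144 bases at NW_021838599.1 5475261 to 5475404, with gaps of 1, 2, 1 and 2 bases. Its female counts were 51, 2, 2, 10 and 7 from left to right, and its male counts 19, 13, 10, 0 and 0. In the series taken, the first and the last 2 tags were thus higher in females and the 2 between them in males. This order depends on the tags taken. A 26-nt tag at 5475288 to 5475313, with 10 female and 0 male counts, could replace the male-higher tag of the same start. With it, only the tag at 5475316 to 5475345 would be male-higher. A 25-nt tag at 5475346 to 5475370, with 9 female and 20 male counts, also touched that tag but was the left partner of no pair.

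Series of 4 tags numbered 5, spanned 110 to 120 bases and were either of one sex or mixed. The 2 with most counts are given. At NW_021839130.1 50806305 to 50806415, female counts were 66, 37, 45 and 6 and male counts 21, 11, 14 and 0, so all 4 tags were higher in females. At NW_021837058.1 93999 to 94118, female counts were 0, 7, 69 and 6 and male counts 9, 0, 109 and 0. There the leading sex changed at each of the 3 gaps, but with RLE factors the log2 ratio of the third tag turned from 1.04 to -0.14, which left a change at the first gap alone. A 29-nt tag at 94058 to 94086, with 6 female and 0 male counts, also linked the second tag to the fourth. With it in place of the third tag, the leading sex changed at the first gap alone.

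**Figure D5:**
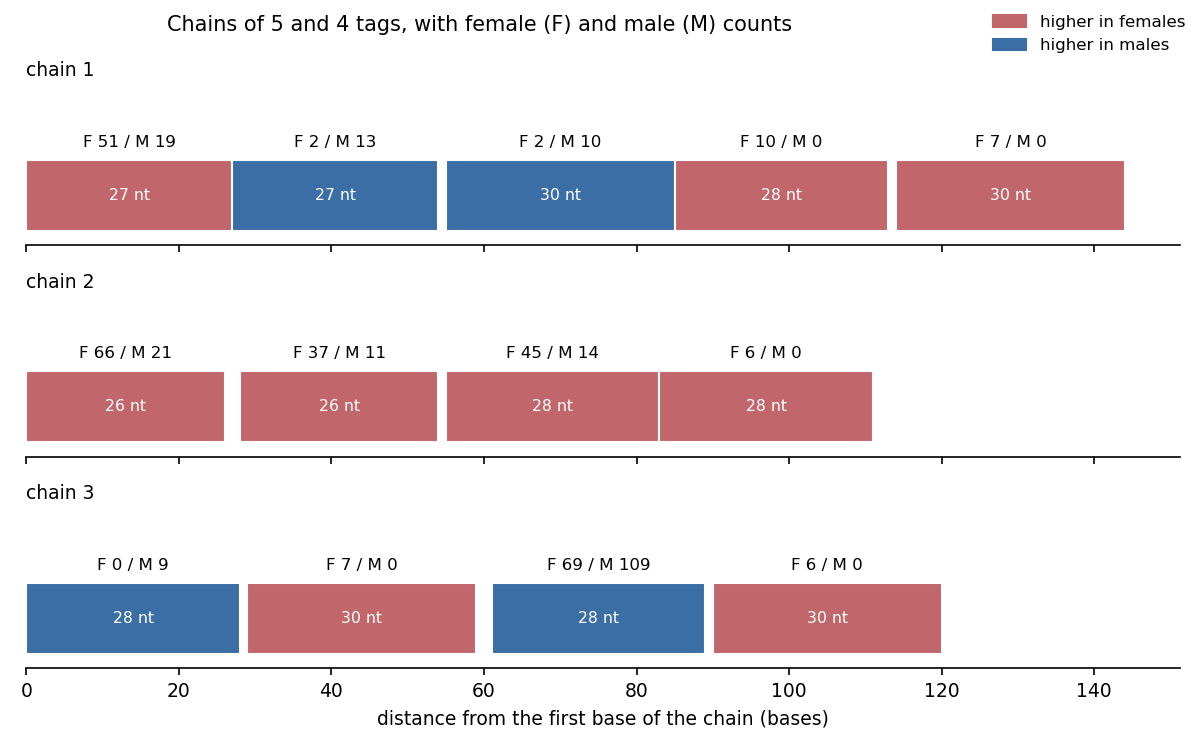
The series of 5 tags linked by gaps of 1 to 3 bases and, of the 5 series of 4 tags, the 2 with most counts, drawn to scale from the first base of each, with the length in nt inside each tag and its female (F) and male (M) counts above. Red tags were higher in females and blue in males, and only chain 2 of the 3 shown has one colour throughout. Other members that overlap these tags are not drawn.

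Members were concentrated in dense regions. Tags at most 10 kb apart formed 485 nuclear regions of 5 or more tags, which held 95.7% of the members and 50.4% of all nuclear tags. Members occurred in 90 of these regions. The 8 regions with most members held 458 of them, 47.6%, but 11.9% of nuclear tags. A dense region gives more pairs at every gap, so this concentration follows in part from the rule. In each of these 8 the junctions at 1 base exceeded the region's own mean at 4 to 20 bases, by 1.55 to 4.86 times, with 8 to 22 junctions each, but in 3 of the 8 the interval included 1. In the region with the next most members, NW_021837600.1 41735615 to 41743779, the ratio was 1.03 (0.37 to 2.32). Without all 8, touching junctions were still 1.96 times (1.62 to 2.35) the mean of the remaining tags.

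The region with most pairs was the compact, male-higher one at NW_021838798.1 2994086 to 3000357. In its 6.27 kb, 84 of 167 tags were members, and all 84 were higher in males, as were 166 of the 167 tags of the region. They formed 149 pairs but 35 junctions, since many tags shared their ends. At one touching junction, 5 tags ended at 2994284 and 4 started at 2994285, which alone gave 20 pairs. Those ending there had 41 female and 175 male counts, and those starting next had 8 and 64. The largest linked group of all, 31 tags in 118 bases, lay at 2994197 to 2994314 and was 6.80-fold (5.64 to 8.27) higher in males. In sum, all tags of the region were 10.25-fold higher in males and its members 9.19-fold. Without the region, the ratio of pairs at 1 to 3 bases to the mean at 4 to 20 was 1.43 in place of 1.64, and that of touching junctions 2.05 in place of 2.10.

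Other regions differed in direction. At NW_021837267.1 27236171 to 27243916, all 53 members and 265 of all 268 tags were higher in males, and the members' 77 pairs came from 31 junctions. At NW_021837489.1 2319772 to 2363743, the region with most members, 49 of 85 members and 198 of all 425 tags were higher in males, and 31 of 57 pairs had partners of one sex. Its 22 touching junctions were 2.17 times (1.33 to 3.40) its mean. At NW_021838599.1 5379067 to 5502690, 41 of 49 members and 333 of all 433 tags were higher in females. The members' sum was 2.41-fold (2.08 to 2.79) higher in females, against 1.96-fold for all tags of the region. At NW_021839130.1 50168091 to 50276698, 41 of 45 members and 329 of all 369 tags were higher in females. In sum the members were 2.37-fold (2.20 to 2.56) higher, against 2.31-fold for all tags of the region. At NW_021837156.1 57184704 to 57269974, 12 touching junctions were 4.86 times (2.33 to 9.40) the mean of 2.47, the highest ratio of the 8.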

How the data were processed

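The authors deposited 1 table with a line per small RNA tag, 1 count column and 1 TPM column per sex, and a log2 column. As deposited, counts are whole and not normalised, and the smallest above 0 is 2. The deposited TPM values equalled the count over a column total on the per-1e6 scale, with 0 written as 0.01. The deposited log2 values were male over female. Per the submitters' processing notes, reads were trimmed with Trimmomatic 0.30. Not given in the sources used here are the aligner, counting program, genome build, strand, repeat matches, the filter on tags and how the 3 libraries per sex were pooled. The tags' sequences and a genome of that build were not used here, so no sequence, gene or first base is shown.

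Pairs were found from start and end in Python 3.11.15, with exact Poisson and Clopper-Pearson 95% intervals (SciPy 1.17.1), and the pair counting was tested on simulated positions. No test was run with 1 column per sex. Scaling alternatives used edgeR 4.0.16 in R 4.3.3 on the listed tags. The rule for pairs to name took, counting each junction once, the 5 with most counts in the lesser partner per class of direction, the 3 with the largest difference in ratio and the 3 longest series by number of tags, ties by counts. Other pairs, and the regions, were chosen with their values in view. Members and lists were chosen with earlier results of these data known.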

Additional observations from a re-analysis of the deposited data

How the results depend on the processing

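No paired analysis was possible because the table holds 1 column per sex, and for the same reason no library could be left out. Same-strand pairs were not run because strand was not used here. Of 66 alternative values, 30 stayed within the interval of the reported value (or within 1.5 times for the number of pairs), 35 moved outside it and 1 turned. The alternatives for touching junctions, those without the compact region with most pairs and those that joined junctions with a count minimum were chosen after seeing the data. Some alternatives leave fewer tags by construction, and for the other values that moved the cause was not tested.

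The number of pairs at 1 to 3 bases, 782, became 487 with each junction once, 110 for tags with at least 20 counts, 75 with both of these, 366 at 1 base alone and 191 between merged loci. Their ratio to the mean at 4 to 20 bases, 1.64, became 1.46 with each junction once, 1.40 against gaps of 4 to 10, 1.86 against 11 to 20, 2.02 with at least 20 counts, 1.43 without the sequence or without the region with most pairs, and 2.30 at 1 base alone. For touching junctions the ratio of 2.10 became 2.93 with at least 20 counts and 1.72 against gaps of 4 to 8 bases. All these ratios stayed above 1.

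The same-sex share at 1 to 3 bases, 78.8%, became 72.9% with each junction once, 88.2% with at least 20 counts, 85.3% with both, 75.3% without the sequence and 73.8% without the region with most pairs, 65.4% between merged loci and 87.5% with all 4 counts at least 10. At 4 to 20 bases, 72.2% became 68.2% with each junction once, 75.4% with at least 20 counts, 68.3% between merged loci and 70.1% without that region. The male-higher share of members, 49.9%, became 45.0% without that sequence and 45.1% without that region.

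The male over female ratio of the members' sum, 1.64, became 1.61 for 24 to 30 nt, 1.54 without the sequence and 1.51 without the region with most pairs, 1.47 without the 10 most counted members, 1.53 when scaled to the listed counts, 1.21 with TMM factors, 1.74 with upper quartile ones and 0.73 with RLE. These 4 scalings shift every log2 ratio by -0.10, -0.44, 0.08 and -1.17. RLE factors turned 17 members and the others none. The correlation of partners' ratios, 0.53, became 0.83 over the 32 pairs with all 4 counts at least 10. No such value is given at 4 to 20 bases. Most tags had under 20 counts, which widens the interval of each ratio.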
